A study of Mus musculus with 65 samples.

Results

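The comparison described here set newly replicated chromatin against the remaining chromatin of the same kind of cells while transcription elongation was blocked. It comprised 6 of the 65 samples of the series: 3 EdU libraries and 3 unbound libraries, all nascent and all from DRB-treated cells, chosen by their column names in the deposited table of 1 kb windows. E14TG2a, an established line of mouse embryonic stem cells (strain 129/Ola), was grown on gelatin with serum and LIF. All groups used below shared the pulse of 20 uM EdU for 10 min without a chase, and were kept before it for 2 h in DRB, in triptolide or in DMSO. The EdU fraction is the tagmented DNA that was biotinylated by click chemistry and held by streptavidin beads, and the unbound fraction is what stayed in the supernatant of that pulldown. The comparison groups were triptolide EdU, triptolide unbound, DMSO EdU and DMSO unbound, each with 3 libraries and treated alike apart from the compound. The labels give neither the dose of a drug nor whether libraries came from separate cultures, so the p-values refer to the spread among these libraries, which may be technical.

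Replication forks evict nucleosomes and bound factors, and the new chromatin must regain accessible promoters and enhancers behind them. DRB inhibits CDK9, the kinase of P-TEFb that releases paused RNA polymerase II into elongation, and triptolide inhibits the XPB subunit of TFIIH, which opens promoter DNA for initiation. In ATAC-seq the Tn5 transposase cuts accessible DNA, so a higher read density marks more open chromatin. The density of the EdU fraction also depends on which DNA was copied during the pulse, which was not separated from openness here. The comparison asks how accessible DNA copied within the pulse was relative to bulk DNA while polymerase could not elongate.

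The EdU libraries held 2114955, 1299334 and 3305913 reads and the unbound libraries 6827218, 7821454 and 11327868. Levels are given in RPM, reads per 1000000 reads of the library, and a single read was worth 0.302 to 0.770 RPM in EdU libraries. Named windows therefore held few EdU reads, and values of 0 in an EdU library are limited by depth. Of the TSS windows, 28.8%, 39.8% and 19.7% held no read in the EdU libraries, against 17.6%, 15.7% and 11.7% in the unbound libraries. Promoters of 7 embryonic stem cell markers (Pou5f1, Nanog, Sox2, Zfp42, Esrrb, Klf4 and Tdgf1) summed to 12.8, 16.2 and 13.9 RPM in EdU and to 52.3, 51.1 and 52.8 RPM in unbound libraries, and 6 of the 7 lay in a nascent peak of the authors' lists. Promoters of other cell types were open too, with an accessible peak in some list at 6 of 8 primitive endoderm, 5 of 5 trophectoderm, 6 of 7 fibroblast, 6 of 6 neural and germ layer and 0 of 3 2-cell-like markers tested. An open promoter is not expression, and no expression was measured here.

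Accessible sites stood out far less in the EdU than in the unbound libraries. Mean RPM in TSS windows was 2.82, 3.30 and 3.15 times the background mean in the EdU libraries and 19.8, 18.2 and 16.998 times in the unbound libraries. The groups did not overlap, and the ratio of their means was 5.93. Background means windows at least 1 kb from every deposited peak that held a read in at least 1 of the 36 libraries of the table. At 8794 enhancers the ratio to background was 2.87, 3.32 and 2.89 in EdU and 26.3, 26.1 and 22.5 in unbound libraries, the widest gap of the 3 kinds of site. At 136300 windows of other steady-state peaks, away from TSSs and enhancers, it was 2.88, 3.28 and 2.94 in EdU and 14.5, 14.2 and 12.8 in unbound libraries. In the EdU libraries all 3 kinds of site thus lay between 2.82 and 3.32 times background, while in the unbound libraries enhancers averaged 25.0 ± 2.13, TSSs 18.3 ± 1.39 and other peaks 13.9 ± 0.912 (SD, n = 3 libraries). Each of these differences had p = 0.1 in a two-sided exact permutation test, also after adjustment over 22 window classes, and 0.1 is the smallest p that 3 against 3 libraries allow.

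**Figure D1:**
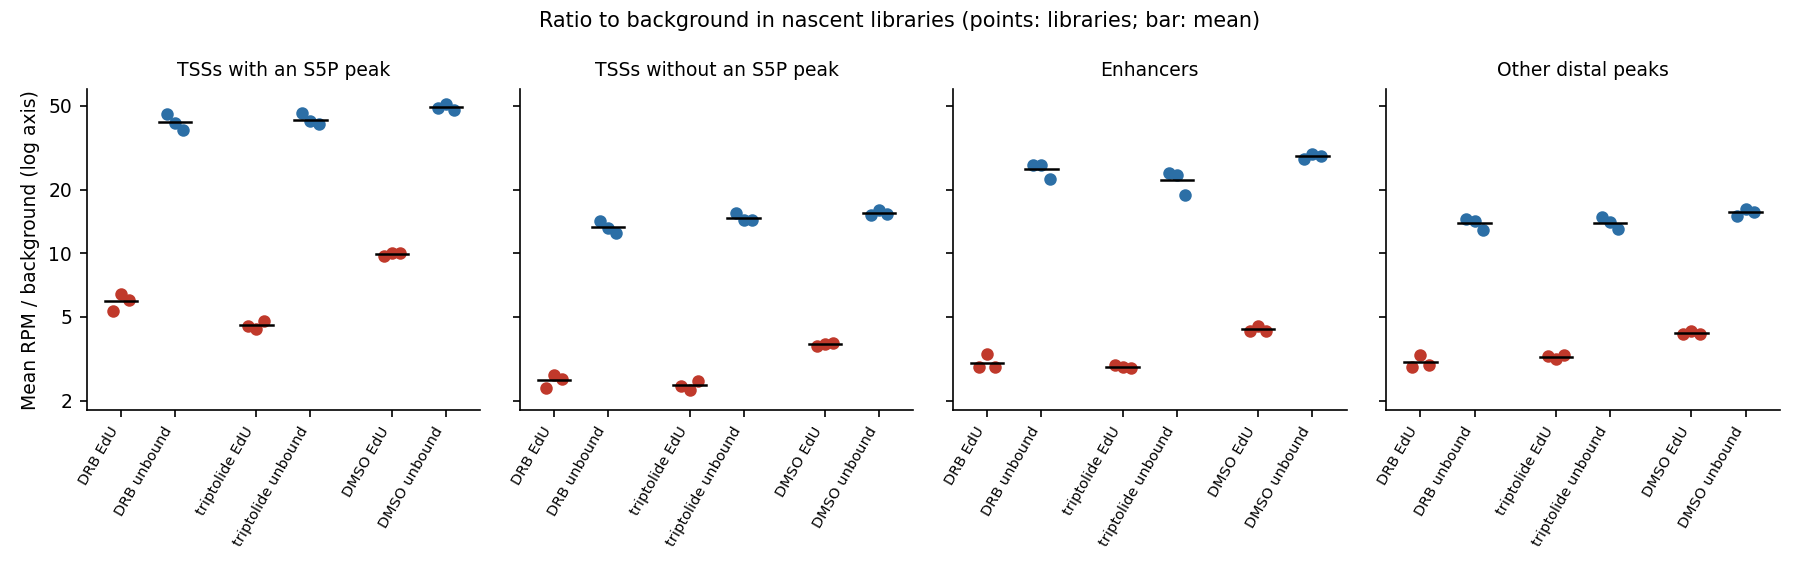
Ratio of mean RPM to the background mean (log axis) at TSSs with and without a peak of RNA polymerase II phosphorylated at serine 5 (S5P), enhancers and other distal peaks, in EdU (red) and unbound (blue) nascent libraries under DRB, triptolide and DMSO; points are libraries and bars their means. Every EdU library lies below every unbound library of its treatment, and DRB EdU libraries lie below DMSO EdU libraries in all 4 panels.

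A smaller share of reads lay in peaks, and a larger one in the background, in the EdU libraries. Steady-state peaks took 21.0%, 23.1% and 21.6% of window reads in the EdU libraries and 55.9%, 55.3% and 53.2% in the unbound libraries. Background windows averaged 0.340 ± 0.00700 RPM in EdU and 0.184 ± 0.00751 RPM in unbound libraries (SD, n = 3), a ratio of 1.85. RPM divides by each library's total, so a window of unchanged density relative to background carries 1.85 times more RPM in EdU. Scaling the libraries to background shifted the median difference of all genes by -0.55 on the log2 scale, and centring them on the median TSS shifted it by 0.64. Differences below are as deposited unless a scaling is named.

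The gap between the fractions was widest at the centre of the sites. At TSSs that overlap an S5P peak of total chromatin, a mark of polymerase at promoters, the centre reached 5.96 ± 0.574 times background in EdU and 42.3 ± 3.69 times in unbound libraries (SD, n = 3). At a distance of 2 kb downstream the values were 2.77 ± 0.277 in EdU and 8.60 ± 0.660 in unbound libraries, and at 10 kb downstream 2.38 ± 0.194 in EdU and 5.47 ± 0.366 in unbound libraries. It narrowed with distance, with ratios of unbound to EdU of 7.11, 3.10 and 2.30, and stayed above 1 out to 10 kb. At TSSs without an S5P peak the centre stood at 2.54 ± 0.179 times background in EdU and 13.7 ± 0.966 times in unbound libraries. Enhancer flanks 10 kb upstream lay at 1.74 ± 0.0811 times background in EdU and 3.72 ± 0.212 times in unbound libraries.

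**Figure D2:**
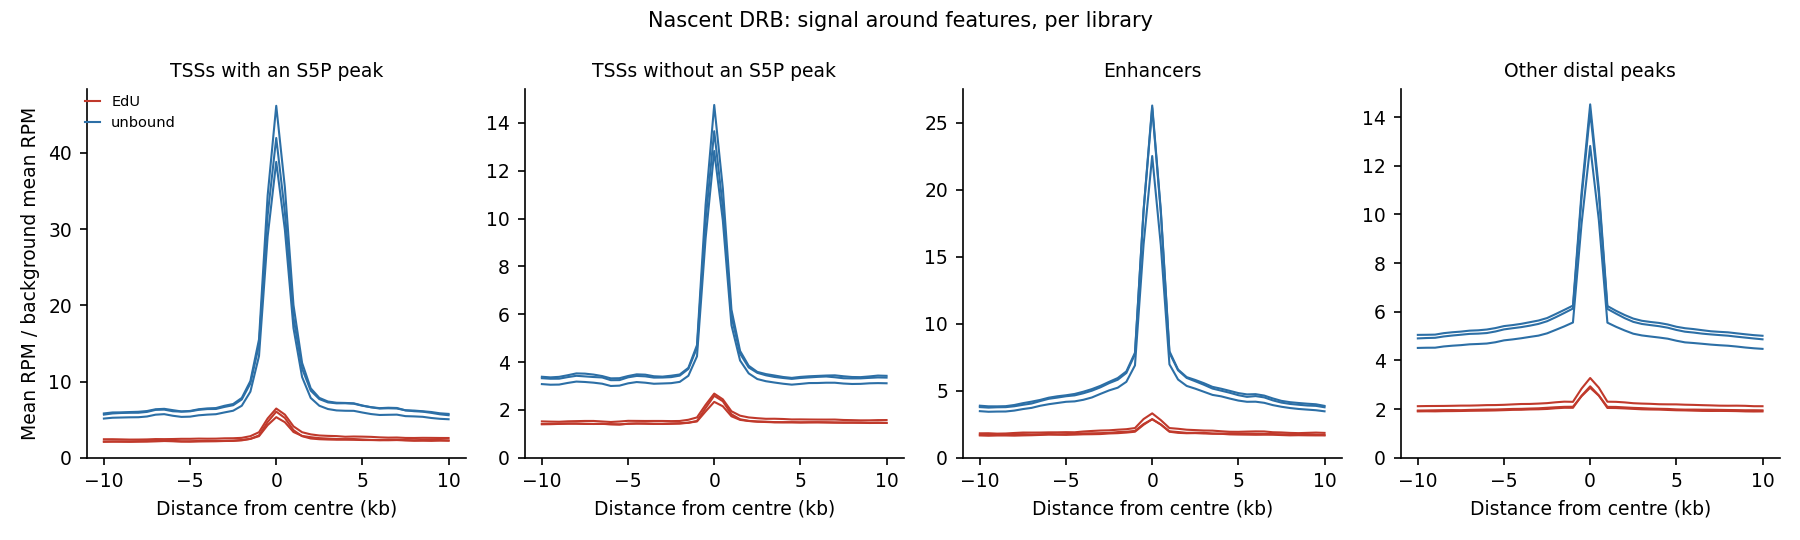
Mean RPM over the background mean against distance from the feature's centre (kb) for the 3 EdU (red) and 3 unbound (blue) nascent DRB libraries, 1 line per library, with separate vertical axes. The EdU peak over S5P TSSs reaches 5.96 times background on average, and the unbound peak 42.3 times.

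Promoter by promoter, TSS windows were far more often lower than higher in the EdU fraction. Of 30212 TSS windows above 0 in at least 3 of the 18 nascent libraries, 14411 (47.7%) were lower and 841 (2.78%) higher in EdU by limma with Benjamini-Hochberg adjustment at 0.05, with a median log2 difference of -0.62 and a median standard error of 0.28. Every EdU value lay below every unbound value in 50.3% of them, and above in 4.21%. Among 23253 genes with a named TSS, 12422 (53.4%) were lower and 561 (2.41%) higher, with a median of -0.84. Background scaling gave 17270 lower and 243 higher TSSs, and centring on the median gave 9033 lower and 10217 higher. Centring sets the median TSS near 0 by construction, which fixes that second split. Limma-voom on recovered reads called more TSSs higher than the main fit, with the count given in the last section.

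The difference grew with how open a promoter was in bulk chromatin. TSSs were cut into 10 groups of equal size by their mean RPM in the DMSO unbound libraries, which are not part of the difference. In the most open group (group 10, 3022 TSSs) the mean stood at 7.11, 8.69 and 8.15 times background in EdU and 80.1, 75.4 and 67.9 times in unbound libraries, a ratio of means of 9.33. In group 6 (3021 TSSs) it stood at 3.01, 3.46 and 3.38 times in EdU and 16.4, 14.8 and 14.4 times in unbound libraries, a ratio of 4.64. Excess over background in EdU was thus 9.51% of that in unbound libraries in group 10 and 16.0% in group 6. In the most closed group (3022 TSSs) the order turned, at 0.737 ± 0.0235 times background in EdU and 0.604 ± 0.0154 times in unbound libraries (SD, n = 3). Within group 10, 1543 TSSs with an S5P peak kept 10.1% of the unbound excess and 1479 without one 8.83%, and in group 9 the shares were 12.5% (1328 TSSs) and 10.8% (1693 TSSs). These shares over TSSs are a description without a test.

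TSSs grouped by polymerase and by when their peak first appeared in the authors' time series differed in how many were called. Over all TSSs 47.7% were lower and 2.78% higher (median -0.62). With an S5P peak, 5337 of 5895 TSSs were lower and 3 higher (median -1.48). Without one, 9074 of 24317 were lower and 838 higher (median -0.23). Among TSSs in a nascent peak the gap was smaller. There 92.4% of those with an S5P peak were lower (median -1.53) and 83.2% of those without (median -1.45). TSSs in a nascent peak were lower in 10075 of 11558 cases (median -1.48), those first in the 30 min list in 2367 of 3082 (median -1.25), those first in the 1 h list in 862 of 1396 (median -0.93) and those first in the 2 h list in 594 of 1148 (median -0.77). Among TSSs found only in the steady-state list, 338 of 1424 were lower and 20 higher (median -0.36), and with no peak in any list 175 of 11604 were lower and 758 higher (median 0.09). Ratios to background ran in the same order in both fractions: TSSs of the nascent list stood at 5.67 ± 0.584 in EdU and 40.4 ± 3.33 in unbound libraries, and TSSs of the steady-state list alone at 2.12 ± 0.0662 in EdU and 6.67 ± 0.197 in unbound libraries (SD, n = 3). The excess over background in DRB EdU was 11.8% of the unbound excess for TSSs of the nascent list. It was 11.6% for those first in the 30 min list, 13.2% for 1 h, 14.1% for 2 h and 19.8% for steady state. The peak lists come from cells without inhibitor and carry no heights.

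The largest falls among coding genes with at least 5 RPM were at N4bp2l2, Ccdc107, Tspyl2, Gbf1, Abhd2, Ift27, Mtmr4, Rnf5, H1f2 and Hsp90b1. Their log2 differences lay between -4.03 and -3.34. That mean over the 6 libraries was reached mainly through the unbound group, so the filter favours falls. Of 3858 coding genes at that level, 3836 were called lower with groups that did not overlap, and 0 higher. The promoters of N4bp2l2, Ccdc107 and H1f2, and those of Hexim1 and Nanog described below, are shown so that the windows with the deepest and with middling falls can be read side by side. The sequences are 300 bases from 250 before to 50 after the start of the gene, from RefSeq on build GRCm38.p6, 5′ to 3′ on the strand of the gene, and capitals mark a match, on either strand, to 1 of 3 motifs, which are TATAAA (the TATA box), the CCAAT box, and the GC box with the letters GGGCGG.
N4bp2l2: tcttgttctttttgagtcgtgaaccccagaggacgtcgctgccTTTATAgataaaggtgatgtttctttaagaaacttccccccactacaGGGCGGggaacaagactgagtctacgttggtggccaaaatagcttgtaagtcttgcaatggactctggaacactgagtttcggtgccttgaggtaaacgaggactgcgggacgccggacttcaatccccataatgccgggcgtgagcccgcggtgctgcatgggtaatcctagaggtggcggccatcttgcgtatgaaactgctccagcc
Ccdc107: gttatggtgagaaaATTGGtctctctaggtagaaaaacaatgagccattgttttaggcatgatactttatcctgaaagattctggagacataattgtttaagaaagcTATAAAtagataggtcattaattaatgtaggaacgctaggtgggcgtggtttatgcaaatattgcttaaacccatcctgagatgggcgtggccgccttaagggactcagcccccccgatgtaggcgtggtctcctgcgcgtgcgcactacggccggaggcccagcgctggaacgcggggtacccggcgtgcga
H1f2: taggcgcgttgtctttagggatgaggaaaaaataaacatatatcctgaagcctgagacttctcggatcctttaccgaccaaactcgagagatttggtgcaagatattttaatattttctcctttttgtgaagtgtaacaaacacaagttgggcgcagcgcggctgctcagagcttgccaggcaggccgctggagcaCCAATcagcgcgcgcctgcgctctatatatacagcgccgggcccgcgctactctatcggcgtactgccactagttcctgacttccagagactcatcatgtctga
Hexim1: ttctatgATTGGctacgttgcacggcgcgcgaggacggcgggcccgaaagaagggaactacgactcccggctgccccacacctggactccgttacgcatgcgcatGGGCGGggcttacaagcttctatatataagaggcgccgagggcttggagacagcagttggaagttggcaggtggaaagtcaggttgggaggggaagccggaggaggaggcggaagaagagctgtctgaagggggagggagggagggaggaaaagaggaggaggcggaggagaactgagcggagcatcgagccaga
Nanog: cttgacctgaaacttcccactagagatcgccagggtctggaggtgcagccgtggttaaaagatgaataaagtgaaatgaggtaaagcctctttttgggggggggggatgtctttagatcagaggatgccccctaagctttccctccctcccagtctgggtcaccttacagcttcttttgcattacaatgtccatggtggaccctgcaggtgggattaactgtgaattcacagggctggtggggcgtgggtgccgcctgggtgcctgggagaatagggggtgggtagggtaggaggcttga
The N4bp2l2 promoter (chr5:150665563-150665862, minus strand) holds 16 CG pairs, that of Ccdc107 (chr4:43493115-43493414, plus strand) 17, that of H1f2 (chr13:23738557-23738856, plus strand) 19, that of Hexim1 (chr11:103116075-103116374, plus strand) 21 and that of Nanog (chr6:122707239-122707538, plus strand) 4. The Nanog promoter holds none of the motifs.

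At N4bp2l2 the window (chr5:150665001-150666000) held 0.946, 0 and 0.907 RPM in EdU and 25.0, 27.0 and 21.0 RPM in unbound libraries. This was the largest difference among coding genes, at -4.03 (SE 0.26, adjusted p = 4.5e-13). The Ccdc107 window (chr4:43492501-43493500) held 0.473, 0 and 0.302 RPM in EdU and 18.3, 16.4 and 13.9 RPM in unbound libraries (difference -3.78, SE 0.25, adjusted p = 6.1e-13). That window also holds the start of Rmrp, the RNA of RNase MRP, a ribosomal RNA processing enzyme, and the reads cannot be told apart. H1f2 encodes a linker histone, and its window held 0.946, 0.770 and 1.51 RPM in EdU and 20.7, 22.9 and 19.3 RPM in unbound libraries (difference -3.42, SE 0.24, adjusted p = 1e-12). Mtmr4, a phosphoinositide phosphatase gene, was the most open of the 10 and held 2.36, 0.770 and 3.93 RPM in EdU and 31.2, 33.2 and 32.1 RPM in unbound libraries. Tspyl2, a gene of the nucleosome assembly protein family on the X chromosome, held 0, 0.770 and 0.302 RPM in EdU and 14.6, 14.4 and 14.7 RPM in unbound libraries. All 10 overlapped a nascent peak except Hsp90b1, an endoplasmic reticulum chaperone gene, which appeared first at 30 min, and 3 of them (Mtmr4, H1f2 and Hsp90b1) overlapped an S5P peak.

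Pluripotency regulators were lower in the EdU fraction as well. Pou5f1, which encodes OCT4, held 2.36, 2.31 and 1.81 RPM in EdU and 7.03, 7.16 and 5.91 RPM in unbound libraries (difference -1.28, SE 0.24, adjusted p = 3e-05). Nanog held 3.31, 3.08 and 0.605 RPM in EdU and 8.64, 8.31 and 9.18 RPM in unbound libraries (difference -1.67, SE 0.29, adjusted p = 6.6e-06). At Sox2 the EdU values were 0.473, 4.62 and 4.23 RPM and the unbound values 13.8, 10.6 and 12.6 RPM (difference -1.92, SE 0.31, adjusted p = 3e-06). The first EdU library was low there, and the groups still did not overlap. Zfp42, the REX1 gene, held 2.84, 3.08 and 3.02 RPM in EdU and 10.99, 11.6 and 11.4 RPM in unbound libraries (difference -1.63, SE 0.24), and Klf4 held 1.89, 0 and 1.81 RPM in EdU and 5.42, 6.39 and 5.12 RPM in unbound libraries (difference -1.72, SE 0.30). Esrrb, the orphan receptor gene, was weakest, with 0.946, 0.770 and 0.302 RPM in EdU and 1.46, 1.53 and 2.74 RPM in unbound libraries (difference -0.79, SE 0.34, adjusted p = 0.047), and its call was lost under several alternatives, among them leaving out any 1 library other than the first EdU library (adjusted p = 0.055 to 0.22). With libraries centred on the median TSS, Pou5f1 (-0.64), Nanog (-1.03), Sox2 (-1.28), Klf4 (-1.08) and Zfp42 (-0.99) were still called lower.

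Genes for the machinery that DRB acts on were lower as well. Cdk9, the target kinase, held 2.36, 1.54 and 1.51 RPM in EdU and 6.74, 5.24 and 5.21 RPM in unbound libraries (difference -1.27, SE 0.29, adjusted p = 0.00034), and was not called when centred on the median (-0.63, adjusted p = 0.063). Hexim1 encodes the protein that holds CDK9 inactive with the 7SK RNA, and had 0.946, 4.62 and 5.44 RPM in EdU and 13.8, 15.2 and 12.4 RPM in unbound libraries (difference -1.84, SE 0.29). Rn7sk, the 7SK gene, averaged 2.74 RPM in EdU and 11.1 RPM in unbound libraries (difference -1.73, SE 0.25). Polr2a, the largest subunit of RNA polymerase II, held 2.84, 0.770 and 3.02 RPM in EdU and 6.59, 8.31 and 6.44 RPM in unbound libraries (difference -1.42, SE 0.29). Of 28 genes of elongation control tested, 27 were lower and 0 higher, against 53.4% and 2.41% of all genes. Their median difference was -1.76, beside -0.84 over all genes. In a nascent peak lay 25 of the 28, and all TSSs in such a peak were lower in 87.2% of cases (median -1.48). Mllt1 of the super elongation complex (-3.08, SE 0.34) and Rtf1 of the PAF complex (-2.87, SE 0.30) fell most, and Aff4, a scaffold of the super elongation complex, was the member not called (-0.66, adjusted p = 0.0501). Among 23 initiation factor genes 20 were lower and 0 higher (median -1.50), and 20 of the 23 lay in a nascent peak. Ercc3, which encodes XPB, held 0, 0 and 0.605 RPM in EdU and 5.71, 5.88 and 6.44 RPM in unbound libraries.

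**Figure D3:**
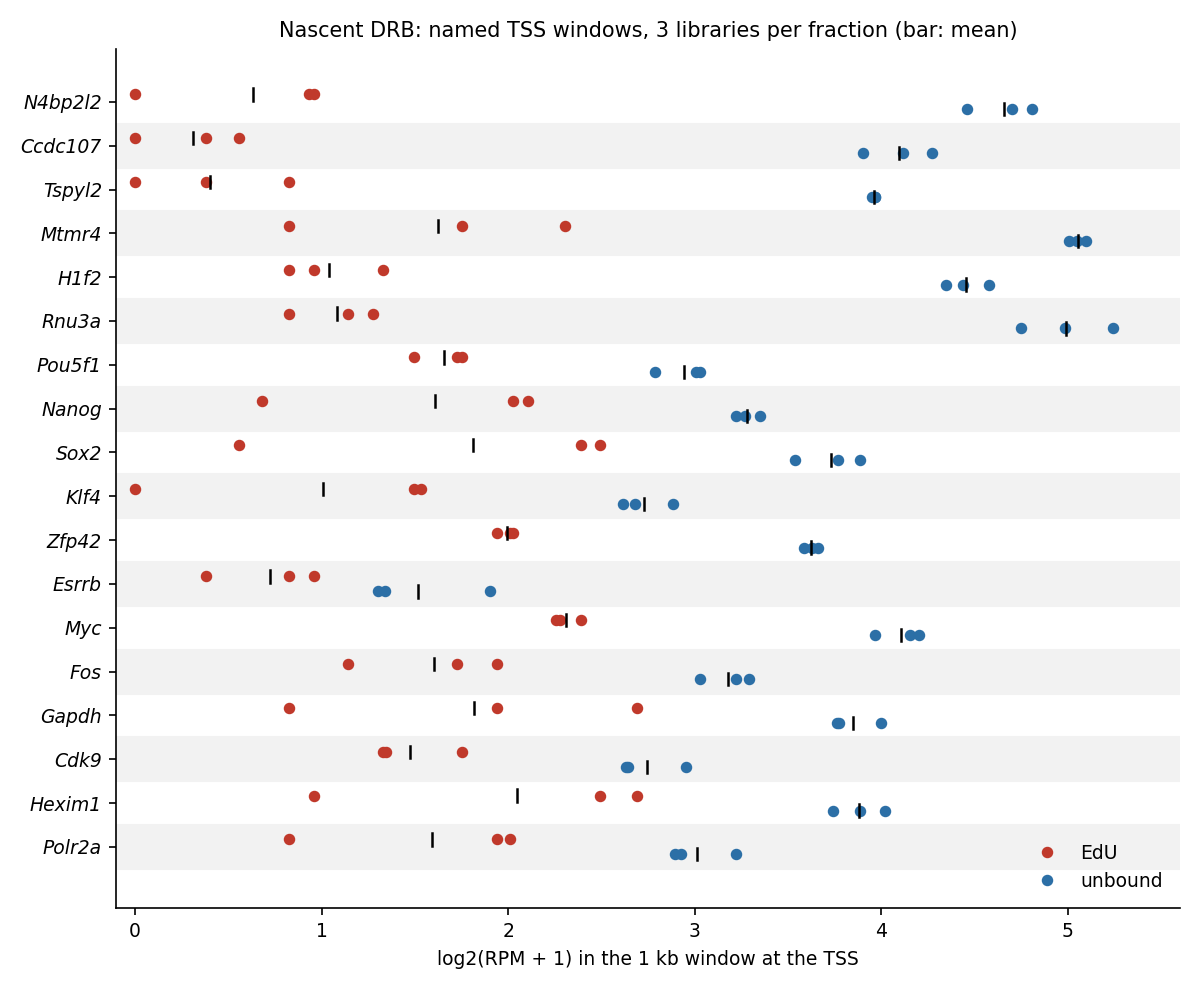
Values of log2(RPM + 1) in the TSS windows of named genes in the 3 EdU (red) and 3 unbound (blue) nascent DRB libraries; bars are means. EdU points lie left of unbound points at every gene shown, with the widest gap at N4bp2l2 (difference -4.03) and the narrowest at Esrrb (-0.79).

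Replication-dependent histone genes, which cells transcribe in S phase, were the list with the lowest median. Of 57 tested, 56 were lower and 0 higher in EdU, against 53.4% and 2.41% of all genes, the median difference was -2.50, beside -0.84 over all genes, and the median RPM of the list was 0.946, 1.54 and 1.21 in EdU and 12.5, 12.3 and 10.8 in unbound libraries. Beside H1f2, H2ac7 held 0, 0.770 and 1.21 RPM in EdU and 16.99, 14.2 and 12.3 RPM in unbound libraries. Histone gene copies resemble each other closely, which makes the level of any single copy uncertain. Of 33 DNA replication genes 32 were lower (median -1.51), and 31 of the 33 lay in a nascent peak. All TSSs in a nascent peak were lower in 87.2% of cases (median -1.48). Orc2 of the origin recognition complex (-2.95, SE 0.30) and the histone chaperone gene Asf1b (-2.62, SE 0.25) led the replication genes.

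Small nuclear RNA and related genes showed a wide spread. Of 23 tested, 15 were lower, 0 higher and 8 not called (median -1.79), against 53.4% lower and 2.41% higher among all genes (median -0.84), so the share called lower was not far from that of all genes. Rnu3a, a gene of the U3 RNA that guides ribosomal RNA processing, held 1.42, 0.770 and 1.21 RPM in EdU and 25.9, 36.8 and 30.6 RPM in unbound libraries (difference -3.91, SE 0.24, adjusted p = 1.4e-13). Its window also carries an enhancer of the authors' list. Rnu5g of the spliceosomal U5 RNA averaged 0.933 ± 0.946 RPM in EdU and 15.1 ± 2.19 RPM in unbound libraries (SD, n = 3). Those not called were Rnu6, Rnu1b2 and 6 pseudogenes, with unbound means of at most 1.63 RPM. Reads from such copies can be split between near-identical genes.

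Stress and signalling genes and housekeeping genes had similar counts. In a nascent peak lay 21 of 22 immediate early, 17 of 21 p53 target, 21 of 24 housekeeping and 66 of 83 ribosomal protein genes. All TSSs in a nascent peak were lower in 87.2% of cases (median -1.48). Beside 53.4% lower and 2.41% higher among all genes (median -0.84), 21 of 22 immediate early genes tested were lower (median -1.57), among them Fos with 2.84, 2.31 and 1.21 RPM in EdU and 8.79, 8.31 and 7.15 RPM in unbound libraries. Dusp1, a phosphatase of MAP kinases, had a difference of -2.48 (SE 0.30) and Klf6 one of -2.31 (SE 0.27). Myc, also a target of growth signals, held 3.78, 3.85 and 4.23 RPM in EdU and 14.6, 17.4 and 16.8 RPM in unbound libraries (difference -1.80, SE 0.22, adjusted p = 2.2e-08). Of 21 p53 targets 20 were lower (median -1.42), led by Gadd45a with 3.31, 7.70 and 6.05 RPM in EdU and 31.3, 30.9 and 27.3 RPM in unbound libraries. Of 24 housekeeping genes 21 were lower (median -1.37); Gapdh held 2.84, 0.770 and 5.44 RPM in EdU and 12.6, 12.7 and 15.0 RPM in unbound libraries, and the transferrin receptor gene Tfrc had a difference of -2.87 (SE 0.27). Ribosomal protein genes were lower in 70 and higher in 1 of 83 (median -1.13), with Rplp1 (-2.43, SE 0.30) and Rpl27 (-2.43, SE 0.32) the most negative.

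The wider list of pluripotency genes was lower in 29 of 33 (median -1.44), where all genes were lower in 53.4% and higher in 2.41% (median -0.84), with Fbxo15 (-2.55, SE 0.23) and Klf5 (-2.51, SE 0.26) the most negative, while Dppa3, Nr5a2, Sall4 and Zfp57 were not called. Developmental regulators bound by Polycomb, which are silent in these cells in the textbook account, were lower in 41 and higher in 0 of 58 (median -1.07), led by Hoxc13 (-2.43, SE 0.29) and Irx3 (-2.28, SE 0.30). Markers of other cell types were lower in 10 of 13 for primitive endoderm (Lamc1 and Lamb1 the most negative), 4 of 7 for trophectoderm (Tead4 and Cdx2), 6 of 11 for fibroblast (Thy1 and Vim) and 10 of 12 for neural and germ layers (Tubb3 and Nes). For trophectoderm and fibroblast markers the share called lower was near that of all genes. Of the 33 pluripotency genes 27 lay in a nascent peak, a class of TSSs lower in 87.2% of cases (median -1.48). Higher in EdU were 2 fibroblast genes, Col3a1 (1.13 RPM in EdU and 0.343 RPM in unbound libraries on average) and S100a4 (1.64 RPM in EdU and 0.200 RPM in unbound libraries).

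Promoters of silent gene families were rarely lower. The same held for all TSSs with no peak in any list, of which 1.51% were lower and 6.53% higher (median 0.09). Of 986 olfactory receptor genes, which are silent outside sensory neurons, 12 were lower and 78 higher in EdU (1.22% and 7.91%, against 53.4% and 2.41% of all genes), and the median difference was 0.09. After background scaling the median was -0.01, and 33 were lower and 24 higher, beside 14553 lower and 152 higher among all 23253 genes. Centring adds the same 0.64 to every gene, which moves this median to 0.73 by construction, with 874 called higher. Olfr658 and Olfr95 were the called members with the largest differences (-1.82 and -1.15), and both had a peak from the 1 h list on. Among 14 genes of the 2-cell-like state 0 were called in either direction (median -0.13, and 0.51 when centred). In both families the median window held at most 0.302 RPM in each EdU library and at most 0.256 RPM in each unbound library, beside background means of 0.340 RPM in EdU and 0.184 RPM in unbound libraries.

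**Figure D4:**
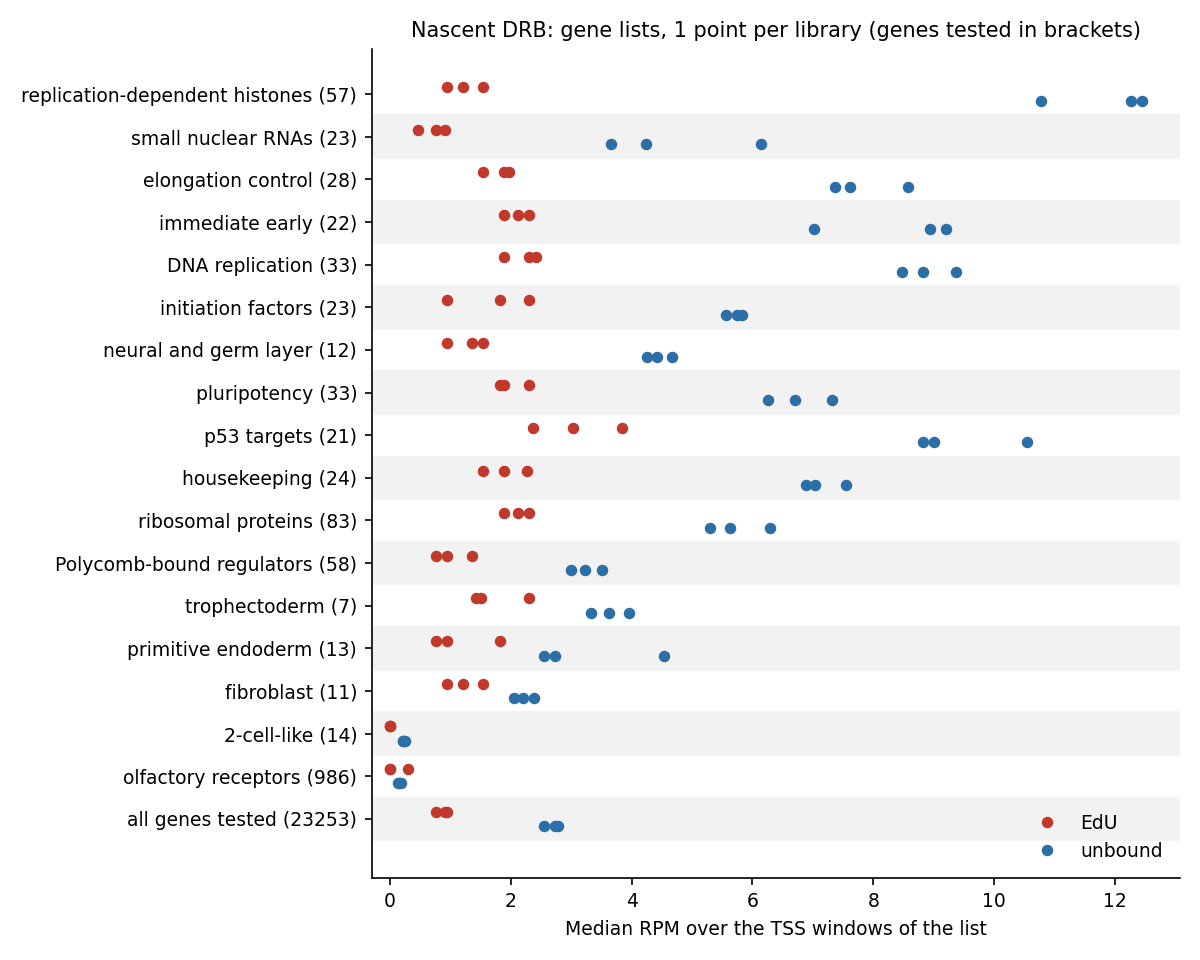
Median RPM over the TSS windows of each gene list in the 3 EdU (red) and 3 unbound (blue) nascent DRB libraries, 1 point per library, with the number of genes tested in brackets. Histone genes have the widest gap, at 1.23 ± 0.297 RPM in EdU and 11.8 ± 0.923 RPM in unbound libraries (SD, n = 3), while 2-cell-like and olfactory receptor genes lie near 0 in both.

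Promoters of genes called lower held more CG pairs than those of the other genes. RefSeq promoters matched 14902 of the 23253 genes tested, of which 9369 were lower, 246 higher and 5287 not called. The median number of CG pairs was 21 in promoters called lower, 2 in those called higher and 3 in those not called. In 4 groups of equal size by CG count, genes with 0 to 4 pairs had a median difference of 0.03, those with 4 to 15 pairs -1.01, those with 15 to 25 pairs -1.53 and those with 25 to 65 pairs -1.44, and their median unbound RPM was 0.222, 3.12, 6.47 and 6.18. The GC box GGGCGG was present in 67.9% of promoters called lower, 7.32% of those called higher, 17.9% of those not called and 35.7% of all 32851 promoters of the table. TATAAA was present in 6.62% of promoters called lower, 26.4% of those called higher, 23.4% of those not called and 13.6% of all. The ETS-type motif CCGGAAG was present in 17.9% of those called lower, 0.407% of those called higher, 3.54% of those not called and 8.86% of all. For the cAMP response motif TGACGTCA the shares in the same order were 3.37%, 0.407%, 1.02% and 1.79%, and for CCAAT they were 40.1%, 37.4%, 36.3% and 37.4%. These shares carry no test. Motifs were searched on both strands, a base can count in more than 1 motif, and a match is not a bound site.

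Among distal elements, 6253 of 8780 enhancer windows tested (71.2%) were lower and 83 (0.945%) higher, with a median difference of -1.21, and 65833 (48.3%) of 136300 other peak windows were lower and 489 (0.359%) higher, with a median of -0.68. Higher distal peaks numbered 785 without EdU library 3 and 246, 235 and 289 without unbound libraries 1, 2 and 3, and higher enhancers numbered 53 and 54 without unbound libraries 1 and 2. Background scaling gave 110479 lower and 56 higher distal peaks and 15 higher enhancers. Centring each kind of site on its own median gave 16018 lower and 6532 higher distal peaks and 2202 lower and 1945 higher enhancers. That centring sets the median of each kind near 0 by construction. Enhancers in a nascent peak were lower in 1729 of 1846 cases (median -1.90), and those with no peak in any list in 136 of 1346 (median -0.07). The enhancer with the largest fall (chr13:74399001-74400000, 8640 bp from Zfp72) held 0.946, 0.770 and 0.907 RPM in EdU and 32.8, 29.4 and 28.8 RPM in unbound libraries (difference -4.06, SE 0.24, adjusted p = 5.2e-20). It was followed by the window shared with Rnu3a and by one inside Plekhg1 (chr10:3891501-3892500), with 0.946, 0 and 1.81 RPM in EdU and 24.0, 24.2 and 22.2 RPM in unbound libraries. Of the other peaks, the largest falls were at chr11:12532001-12533000, which is 67479 bp from Cobl (-3.76, SE 0.26), at chr2:170772001-170773000 inside Dok5 (-3.71, SE 0.27) and at chr6:34187501-34188500, 10947 bp from Slc35b4 (-3.67, SE 0.28). The enhancers highest in EdU, inside Msi2 (1.35, SE 0.32), Trak1 (1.18, SE 0.31) and Vangl1 (0.99, SE 0.29), lay in no peak of any list and had EdU means of 1.91 to 2.36 RPM and unbound means of 0.307 to 0.451 RPM.

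Windows higher in EdU were mostly closed in bulk chromatin. Of the 841 TSSs called higher, 758 had no peak in any list and 3 an S5P peak, and their median level was 0.918 RPM in EdU and 0.134 RPM in unbound libraries. With libraries scaled to background 243 of them were still called higher, and without unbound library 1, 2 or 3 the count was 440, 473 or 515. At distal peaks every EdU value lay above every unbound value in 1.27% of windows, and a few of these had a high RPM in EdU. A window at chr8:71432501-71433500, 22273 bp from Ankle1, held 32.2, 30.0 and 19.7 RPM in EdU and 1.17, 2.30 and 2.56 RPM in unbound libraries (difference 3.23, SE 0.30, adjusted p = 2e-13). Windows in and beside Sfi1 (chr11:3168501-3169500 and chr11:3129501-3130500) had EdU means of 13.0 ± 3.24 and 9.50 ± 0.690 RPM and unbound means of 2.08 ± 0.694 and 2.59 ± 0.591 RPM (SD, n = 3). The window near Ankle1 had a difference of 3.23 under DRB, 3.12 under triptolide and 3.22 under DMSO. The first Sfi1 window had 2.18 under DRB, 1.25 under triptolide and 1.47 under DMSO, and the second 1.56 under DRB, 1.17 under triptolide and 1.30 under DMSO. Whether reads of repeated copies gather there was not tested.

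Set beside the other treatments, the fall at accessible sites was deeper with DRB than with DMSO when taken over all sites. TSS windows stood at 3.09 ± 0.244 times background in DRB EdU and 4.79 ± 0.0915 times in DMSO EdU libraries (SD, n = 3), and the excess over background in EdU was 12.1% ± 1.41 of the unbound excess under DRB, 9.35% ± 0.722 under triptolide and 18.6% ± 0.448 under DMSO. For S5P TSSs the shares were 11.99% ± 1.40 under DRB, 8.47% ± 0.495 under triptolide and 18.5% ± 0.435 under DMSO. For TSSs without an S5P peak they were 12.1% ± 1.42, 9.92% ± 0.870 and 18.6% ± 0.472. At enhancers they were 8.46% ± 1.05, 8.97% ± 0.236 and 12.1% ± 0.520, and at other peaks 15.8% ± 1.69, 17.2% ± 0.606 and 21.8% ± 0.532, in the same order of treatments. The 3 DRB values lay below the 3 DMSO values in each of these classes (two-sided exact permutation p = 0.1, the smallest possible). Against triptolide the DRB values were higher at S5P TSSs (exact permutation p = 0.1). They overlapped at TSSs without an S5P peak (exact permutation p = 0.2) and at enhancers and other peaks (exact permutation p = 0.4 each). DRB EdU libraries were also lower in the flanks. At 10 kb upstream of S5P TSSs, EdU stood at 2.23 ± 0.183 times background under DRB and 3.11 ± 0.0688 under DMSO. Unbound libraries stood there at 5.55 ± 0.352 under DRB and 6.27 ± 0.163 under DMSO (SD, n = 3). Whether the difference belongs to the sites or to the wider regions was not tested.

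Single promoters did not pass the test of that difference. The DRB minus DMSO contrast of the EdU minus unbound difference called 0 of 30212 TSSs and 0 of 8780 enhancers with limma, while 3262 TSSs (2704 lower, 558 higher) and 711 enhancers had an unadjusted p under 0.05, and limma-voom on recovered reads called 0 TSSs as well. The median of the contrast was -0.15 over TSSs, beside a median standard error of 0.39 for a single TSS. Counts moved with single libraries: 125 TSSs were lower and 14 higher without EdU library 3, 30 and 3 without EdU library 1, and 22 and 3 without EdU library 2. Among coding genes the 3 smallest p values belonged to N4bp2l2 (-4.03 under DRB and -2.08 under DMSO), Rnf5 (-3.42 under DRB and -1.62 under DMSO) and Ercc3 (-2.58 under DRB and -0.49 under DMSO), each with adjusted p = 0.077. Against triptolide, 8 TSSs (0.0265% of TSSs and 0.0344% of genes) and 1 distal peak (0.000734%) had a more negative difference under DRB, and all 8 TSSs belong to genes of small nuclear or nucleolar RNAs (Gm22265, Gm25099, Gm23143, Rnu5g, Snord118, Rnu1a1, Rnu3b1 and Gm22634). Rnu1a1, of the U1 RNA, averaged 1.08 ± 0.388 RPM in DRB EdU and 12.1 ± 2.03 RPM in DRB unbound libraries, and 1.04 ± 0.333 RPM in triptolide EdU and 1.201 ± 0.242 RPM in triptolide unbound libraries (SD, n = 3; contrast -2.55, SE 0.38, adjusted p = 0.0010). At these genes the unbound fraction differed between the drugs, while the EdU fraction was low in both. Limma-voom called 0 of them, and 4 remained in number without unbound library 2.

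Away from peaks, background reads were spread differently along the genome in the EdU and unbound fractions. In 2592 bins of 1 Mb, 758 (29.2%) took a smaller and 735 (28.4%) a larger share of background reads in EdU (limma, adjusted p under 0.05). Bins without coding genes took 11.4%, 11.8% and 12.1% of background reads in EdU and 9.42%, 9.29% and 9.72% in unbound libraries, and bins with over 15 coding genes took 14.2%, 14.4% and 13.5% in EdU and 16.4%, 16.5% and 16.1% in unbound libraries. Of the 288 gene-free bins, 233 were higher and 3 lower, and of the 411 gene-dense bins 20 were higher and 258 lower. Across the 2592 bins the difference fell with the number of coding genes (Spearman's rho -0.70 over bins, which share libraries and are no replicates). Under DMSO the rho was 0.30, and 110 of the 2592 bins were lower and 104 higher. Gene-free bins took 8.35% ± 0.372 in DMSO EdU and 8.64% ± 0.180 in DMSO unbound libraries, which overlapped (two-sided exact permutation p = 0.3). Gene-dense bins took 18.3% ± 0.596 in DMSO EdU and 17.3% ± 0.169 in DMSO unbound libraries (SD, n = 3; exact permutation p = 0.1). Under triptolide the rho was -0.36, of the same sign as under DRB, and 589 bins were lower and 622 higher. Gene-free bins took 9.97% ± 0.596 in triptolide EdU and 8.42% ± 0.711 in triptolide unbound libraries, and gene-dense bins 18.5% ± 0.721 in EdU and 18.4% ± 1.22 in unbound libraries.

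**Figure D5:**
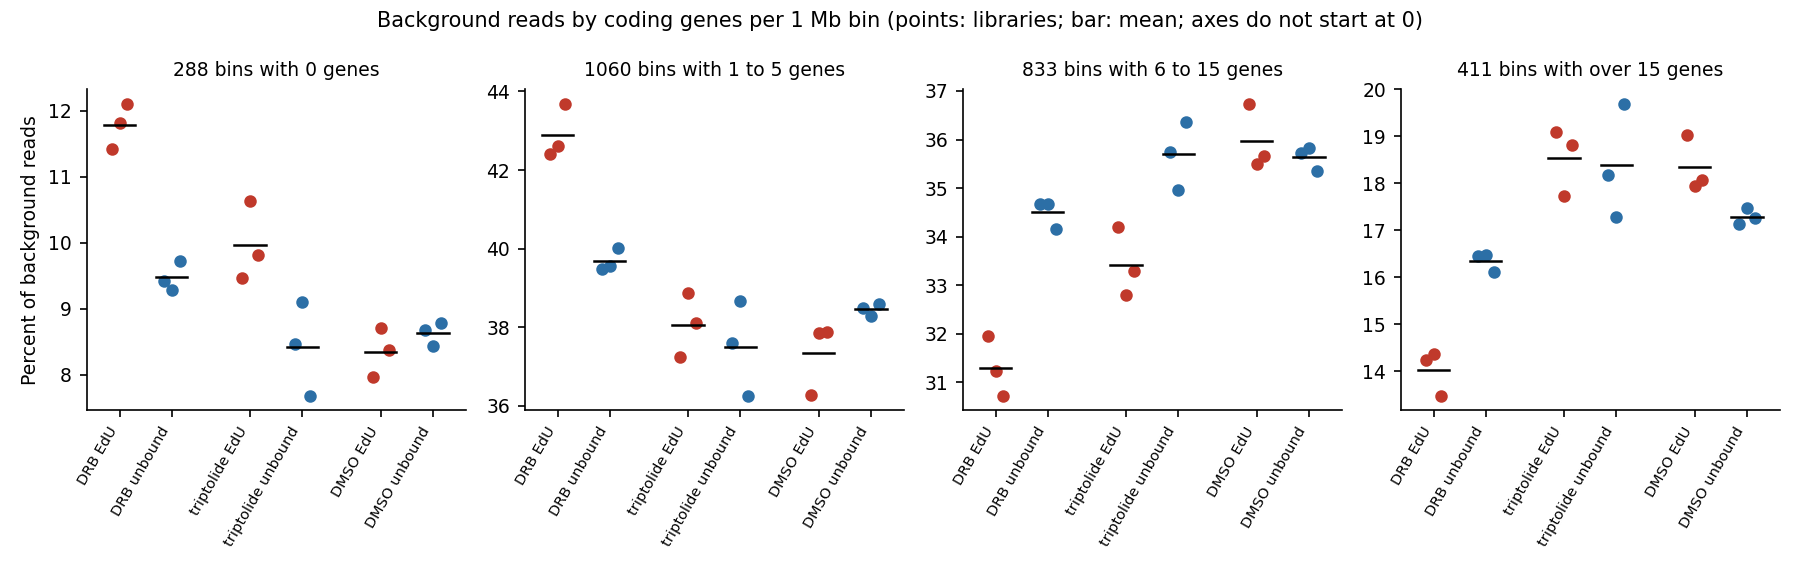
Percent of background reads in 1 Mb bins with 0, 1 to 5, 6 to 15 and over 15 coding genes, in EdU (red) and unbound (blue) nascent libraries under DRB, triptolide and DMSO; points are libraries, bars means, and the vertical axes do not start at 0. DRB EdU libraries hold the largest share in gene-free bins (11.8% ± 0.351, SD, n = 3) and the smallest in bins with over 15 genes (14.02% ± 0.477).

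The test of the difference between treatments passed for many bins: 622 (24%) had a lower and 697 (26.9%) a higher EdU minus unbound difference under DRB than under DMSO, with a median of 14 coding genes in the lower and 1 in the higher bins. Against triptolide 274 (10.6%) were lower and 104 (4.01%) higher, and without EdU library 3 these counts were 105 and 53, without unbound library 1 154 and 54, and without unbound library 2 155 and 51. A replicate block in the fit gave larger counts both ways, which are given in the last section. The 3 largest falls were at chr12:22000001-23000000 (-0.77, SE 0.22), a bin with 341 background windows, chr5:112000001-113000000 (-0.68, SE 0.07) and chr13:67000001-68000000, which holds a cluster of zinc finger genes (-0.65, SE 0.10). The bin on chromosome 5 had 399, 372 and 381 of each 1000000 background reads in EdU and 642, 593 and 615 in unbound libraries. The 3 largest gains were on the sex chromosomes, at chrY:29000001-30000000 (0.97, SE 0.24), chrX:29000001-30000000 (0.89, SE 0.32) and chrY:40000001-41000000 (0.81, SE 0.22), where unbound libraries held on average only 7.15 to 12.1 of each 1000000 background reads. Among chromosomes, the share of background reads on chromosome 11 was 4.69% ± 0.0830 in EdU and 5.02% ± 0.0587 in unbound libraries, and on chromosome 3 it was 6.52% ± 0.0761 in EdU and 6.24% ± 0.0383 in unbound libraries (SD, n = 3; two-sided exact permutation p = 0.1 each, 0.12 adjusted over 21 chromosomes).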

How the data were processed

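ATAC-seq reads of EdU-captured and unbound DNA from E14TG2a cells were used as the authors deposited them: log2(RPM + 1) values, with RPM counting reads per 1000000 reads of a library, in 1 kb windows every 500 bp (5451088 windows, 36 libraries). Trim Galore 0.4.2, Bowtie2 2.2.6.2 and build mm10 are named in the submitters' processing notes. Positions of TSSs, enhancers and peaks come from the lists that the authors deposited, and the peak lists hold no heights. Every value was a whole number of reads within 0.1 read, so total reads per library could be recovered. They ran from 1299334 to 3305913 in the EdU and from 6827218 to 11327868 in the unbound DRB libraries. Reads carry no molecular identifiers, so depth covers counting error only. Each site took its nearest window: 31995 TSSs in 30781 windows, 8794 enhancers and 136300 distal peak windows. Background comprised 1947418 windows at least 1 kb from any peak with a read in at least 1 of the 36 libraries. TSSs were named from RefSeq GRCm38.p6 starts within 1000 bp (24883 named), so neighbouring genes can share a window.

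EdU minus unbound differences were tested with limma 3.58.1 with a mean-variance trend (R 4.3.3), on log2(RPM + 1), for windows above 0 in at least 3 of the 18 nascent libraries, with Benjamini-Hochberg adjustment over all windows of a kind at 0.05. A pseudocount of 1 RPM understates changes of low windows. The labels name no batch. Single values per library were compared with exact permutation tests (scipy 1.17.1). The script was tested on simulated data. Named genes were coding genes with a mean of 5 RPM or more over the 6 DRB libraries, a level reached mainly through the unbound group, with the 10 largest called falls (no rise qualified), a fixed set of pluripotency, growth and transcription genes, the 2 called members with the largest differences in each list, the 3 smallest p values of the DRB minus DMSO contrast, and the 3 most extreme enhancers, distal peaks and bins each way; Actb was not measured. Others were named after their values were seen. Members and lists were chosen with earlier results of these data known. Alternatives covered the pseudocount, filter, scaling, limma-voom, thinning, libraries in the fit, replicate block, neighbouring windows, background and leaving out each library.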

Additional observations from a re-analysis of the deposited data

Results flagged for a closer look

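The EdU minus unbound difference was itself tested between treatments (limma, Benjamini-Hochberg adjustment), and the results below passed that test. At 8 TSSs, all of small nuclear or nucleolar RNA genes, the difference was more negative under DRB than under triptolide. Among 1 Mb bins of background reads, 622 had a lower and 697 a higher difference under DRB than under DMSO. Against triptolide, 274 bins were lower and 104 higher.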

How the results depend on the processing

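The 65 named genes, enhancers and distal peaks were recomputed under 18 alternatives. Of 1154 values, 1137 kept their direction and side of the threshold, 17 lost significance (11 of them Esrrb) and 0 reversed. Most of the 65 were picked as called members with extreme differences in the main fit. Their count therefore does not speak for windows in general, whose counts follow. Centring each kind of window on its own median turned the median TSS difference to 0.024. It gave 9033 lower and 10217 higher TSSs, 2202 lower and 1945 higher enhancers, and 16018 lower and 6532 higher distal peaks. Scaling to background gave 243 higher TSSs, 15 higher enhancers, and 110479 lower and 56 higher distal peaks. A minimum mean of 2 RPM left 6 higher TSSs, 1 higher enhancer, and 34208 lower and 92 higher distal peaks. Limma-voom called 3824 TSSs, 240 enhancers and 840 distal peaks higher. Thinned reads gave 395 higher TSSs, 49 higher enhancers, and 26553 lower and 197 higher distal peaks. The 6 libraries alone gave 442, 55 and 323 higher TSSs, enhancers and distal peaks, and means of 3 windows 1283 higher TSSs. The causes of these shifts were not tested.

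For DRB minus DMSO, scaling to background called 18 TSSs lower and 1 higher, and 1 enhancer each way, and thinned reads 1 TSS lower and 2 higher. For DRB minus triptolide, scaling to background called 17 TSSs lower, thinned reads 5 lower and 6 higher, and limma-voom 0. Deviations of same-numbered EdU and unbound libraries correlated weakly at sites, above 0 in 26 of 27 comparisons (-0.0085 to 0.074) against 13 of 54 for different numbers (-0.046 to 0.013). In 1 Mb bins, a check added after seeing the data, 8 of 9 were above 0 and 7 above 0.1 (-0.13 to 0.65), against 7 and 2 of 18 for different numbers (-0.6 to 0.31). Not every pair passed 0.1 in either, so the main fit was kept without a replicate block. This does not show that the libraries are unpaired, because windows with few EdU reads hold such correlations near 0. The labels do not settle it. The replicate block gave 14409 lower TSSs, 13 TSSs and 2 enhancers lower for DRB minus DMSO, and, for DRB minus triptolide, 1 TSS higher, 417 bins lower and 217 bins higher.

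Ratios to background with windows at least 5 kb from peaks, and then with all windows at least 1 kb from peaks, also those without a read, were 3.40 and 3.47 in EdU and 21.2 and 20.6 in unbound libraries at TSSs, 3.33 and 3.40 in EdU and 28.8 and 28.0 in unbound libraries at enhancers, and 3.33 and 3.40 in EdU and 16.0 and 15.5 in unbound libraries at distal peaks.

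Leaving out each DRB library in turn gave 13278 to 13991 lower and 440 to 1113 higher TSSs, 5874 to 6059 lower and 53 to 106 higher enhancers, and 53939 to 61149 lower and 235 to 785 higher distal peaks. Higher distal peaks numbered 785 without EdU library 3 and 246, 235 and 289 without unbound libraries 1, 2 and 3, and higher enhancers 53 and 54 without unbound libraries 1 and 2. Bins ranged from 602 to 764 lower and 582 to 725 higher. DRB minus DMSO ranged from 0 to 125 lower and 0 to 14 higher TSSs, 0 to 5 lower and 0 to 1 higher enhancers, and 485 to 645 lower and 542 to 715 higher bins. DRB minus triptolide ranged from 4 to 12 lower and 0 to 16 higher TSSs, 0 to 2 lower enhancers, and 105 to 301 lower and 51 to 105 higher bins. Ratios to background ranged from 2.99 to 3.23 in EdU and 17.6 to 19.0 in unbound libraries at TSSs, 2.88 to 3.10 and 24.3 to 26.2 at enhancers, and 2.91 to 3.11 and 13.5 to 14.4 at distal peaks. With 1299334 reads in the smallest EdU library, a window under about 1 RPM holds 0 to 1 reads there, which limits what single promoters can show.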
